A study of Homo sapiens with 12 samples.

Results

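The genes described here are 58 genes of mitosis, the kinetochore and cytokinesis, taken by symbol from a table of 59276 features. They were chosen by function, as genes that carry a cell from the end of interphase through chromosome segregation to division, and no measured value entered the rule. Earlier results of these data were known when the list was made. All 58 were in the table, and all 58 passed the filter on low values that left 11939 features for testing. Total RNA had been sequenced from MM1S, an established human multiple myeloma cell line grown from malignant plasma cells. Untreated cells of day 0 were compared with cells kept in 10 μM NGI-1 for 2, 3 or 5 days, with 3 libraries in each of the 4 groups. NGI-1 is a small molecule that inhibits the oligosaccharyltransferase (OST) complex, which attaches N-glycans to new proteins in the endoplasmic reticulum. The labels name NGI-1 for the day 0 libraries as well, and these were taken as untreated because they had spent no day in the drug. The labels state more than 60 M paired-end reads for each library, but TPM keeps no counts, so the counting error behind a value is unknown. No library holds untreated cells of a later day, so days in culture and days of NGI-1 cannot be told apart. Nothing in the labels says that the libraries of a group came from separate cultures, so the p-values measure the spread between these libraries, which may be technical. Replicate numbers follow the order of deposit and link no library of one day with a library of another.

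Entry into mitosis is driven by cyclin B and the kinase CDK1, with Aurora and Polo-like kinases acting beside them to build the spindle and condense the chromosomes. The kinetochore joins each chromosome to the spindle, and the spindle checkpoint holds back the anaphase-promoting complex (APC/C) until every kinetochore is attached. Most genes of this kind are transcribed late in the cell cycle, through promoters that often carry CCAAT boxes bound by NF-Y and a cell-cycle homology region (CHR) bound by complexes with MuvB, B-MYB and FOXM1, and their RNA is low in cells that do not cycle.

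The promoters are shown first because they hold the sequence elements that these genes are known for. RefSeq windows on GRCh38.p14, from 250 bases before to 50 after a start site, were found for 50 of the 58 genes, as 64 windows. FOXM1, AURKA, BIRC5, BUB3, TTK, UBE2C, CENPM and TPX2 had no entry. Below are the 120 bases before the start site of 6 genes. CCNB2, PLK1, CDC20 and PRC1 hold TTTGAA and CCAAT, and CCNB1 holds CCAAT but not TTTGAA. UBE2S is the gene that kept the largest share of its RNA on day 5. Capitals mark TTTGAA, the usual letters of the CHR, and CCAAT, searched on both strands. Other forms of the CHR are not marked, so a stretch without TTTGAA may still hold a CHR. No match of one motif overlaps a match of the other, and every match capitalized here lies on the strand of its gene. UBE2S has none in this stretch, and its CCAAT lies further from the start.
CCNB2 (chr15:59105026-59105145, + strand): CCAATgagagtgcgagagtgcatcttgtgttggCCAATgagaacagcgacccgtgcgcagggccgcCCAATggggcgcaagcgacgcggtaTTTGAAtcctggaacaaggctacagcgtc
PLK1 (chr16:23678769-23678888, + strand): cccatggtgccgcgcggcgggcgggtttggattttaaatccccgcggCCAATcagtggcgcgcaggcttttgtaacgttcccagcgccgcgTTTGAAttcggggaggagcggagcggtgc
CDC20 (chr1:43358861-43358980, + strand): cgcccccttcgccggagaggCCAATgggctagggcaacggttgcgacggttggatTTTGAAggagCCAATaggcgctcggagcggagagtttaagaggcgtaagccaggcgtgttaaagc
PRC1 (chr15:90994536-90994655, - strand): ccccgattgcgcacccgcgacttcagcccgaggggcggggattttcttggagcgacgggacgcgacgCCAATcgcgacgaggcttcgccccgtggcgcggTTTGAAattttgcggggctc
CCNB1 (chr5:69167030-69167149, + strand): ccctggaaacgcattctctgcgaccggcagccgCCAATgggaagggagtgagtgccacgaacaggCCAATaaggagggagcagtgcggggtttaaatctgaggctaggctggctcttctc
UBE2S (chr19:55407789-55407908, - strand): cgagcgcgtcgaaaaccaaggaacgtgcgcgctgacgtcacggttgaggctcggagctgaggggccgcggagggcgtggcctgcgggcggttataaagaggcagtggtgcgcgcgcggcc
TTTGAA began 29 bases before the start in both CCNB2 and PLK1, 65 before in CDC20 and 20 before in PRC1. CCNB2 held 3 CCAAT boxes in this stretch, and neighbouring boxes began 33 bases apart.

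Over whole windows, TTTGAA was found in 39 of the 64 windows of these genes, or 60.9%, against 15.2% of all 35116 windows of the same length. CCAAT was found in 45 windows, or 70.3%, against 34.6% of all windows. Both motifs stood in the same window in 46.9% of the windows of these genes and in 5.9% of all windows. The rarer CHR form TTCGAA was found in 3 windows of these genes, and in 1.45% of all windows. By position, 21 of the 64 windows held a TTTGAA that began within the last 50 bases before the start, or 32.8% against 2.56% of all windows. CCAAT peaked one bin further out, from 100 to 51 bases before the start, with 48.4% of the windows against 12.9%. A match of letters is a description of the window and does not show that a factor binds there.

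All 58 genes were expressed in untreated MM1S cells, and all 58 fell under NGI-1. Their summed level was 3679 ± 29.9 TPM (SD, n = 3) in the untreated libraries, 1196 ± 15.0 TPM on day 2, 208 ± 15.7 TPM on day 3 and 115 ± 10.3 TPM on day 5. TPM is a length-corrected share of the transcripts sequenced, so these sums correspond to 0.368%, 0.12%, 0.0208% and 0.0115% of each library. The ranges of the groups did not overlap, since the sums ran from 3645 to 3701, from 1181 to 1211, from 193 to 224 and from 103 to 121 TPM. In bulk RNA, fewer cells that express a gene and less of its RNA in each cell cannot be told apart.

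A gene was called lower when its Benjamini-Hochberg adjusted p-value from limma, over all tested features, was under 0.05 and its log2 fold change on the log2(TPM + 1) scale was below -0.5. On day 2, 57 of the 58 genes were called lower than in untreated cells, against 23.2% of all tested features. UBE2S, described below, was the exception. On day 3 and on day 5 all 58 were called lower, against backgrounds of 61.5% and 69.8%. With so much of the table lower on the later days, the sizes tell more than the counts. The median log2 fold change of the 58 genes was -1.69 on day 2, -4.10 on day 3 and -4.92 on day 5, and that of all tested features was -0.18, -0.73 and -0.99. In linear terms, the median gene of the 58 kept 29.7%, 2.92% and 0.824% of its untreated mean TPM on the 3 days, and the median tested feature kept 86.1%, 53.7% and 42.6%. None of the 58 was called higher on any day, while 8.03%, 7.59% and 7.73% of all features were.

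The composition of the libraries changed over the same days. Ribosomal protein genes (86 genes) held 28.2% to 29.2% of the TPM in untreated libraries and 47.5% to 49.1% on day 5, and a share taken by some genes lowers the TPM of all others. How much of the background's fall goes with this share was not tested. A rescaled table was made, in which the TPM of each library were divided by a factor before 1 was added and the log2 taken. The factor was chosen from the 5433 most expressed features (mean of 10 TPM or more) so that their typical level was equal in the 12 libraries. This treats the typical level as unchanged, which was not tested. Because the 1 was added afterwards, log2 fold changes moved less for genes with few TPM. After rescaling, 57, 58 and 58 of the mitosis genes were called lower on days 2, 3 and 5, against 11.4%, 24.2% and 26.9% of all features. Their median log2 fold changes were then -1.45, -3.35 and -4.02. The falls were smaller on this scale, and all 58 genes kept the direction of their change on each day.

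**Figure D1:**
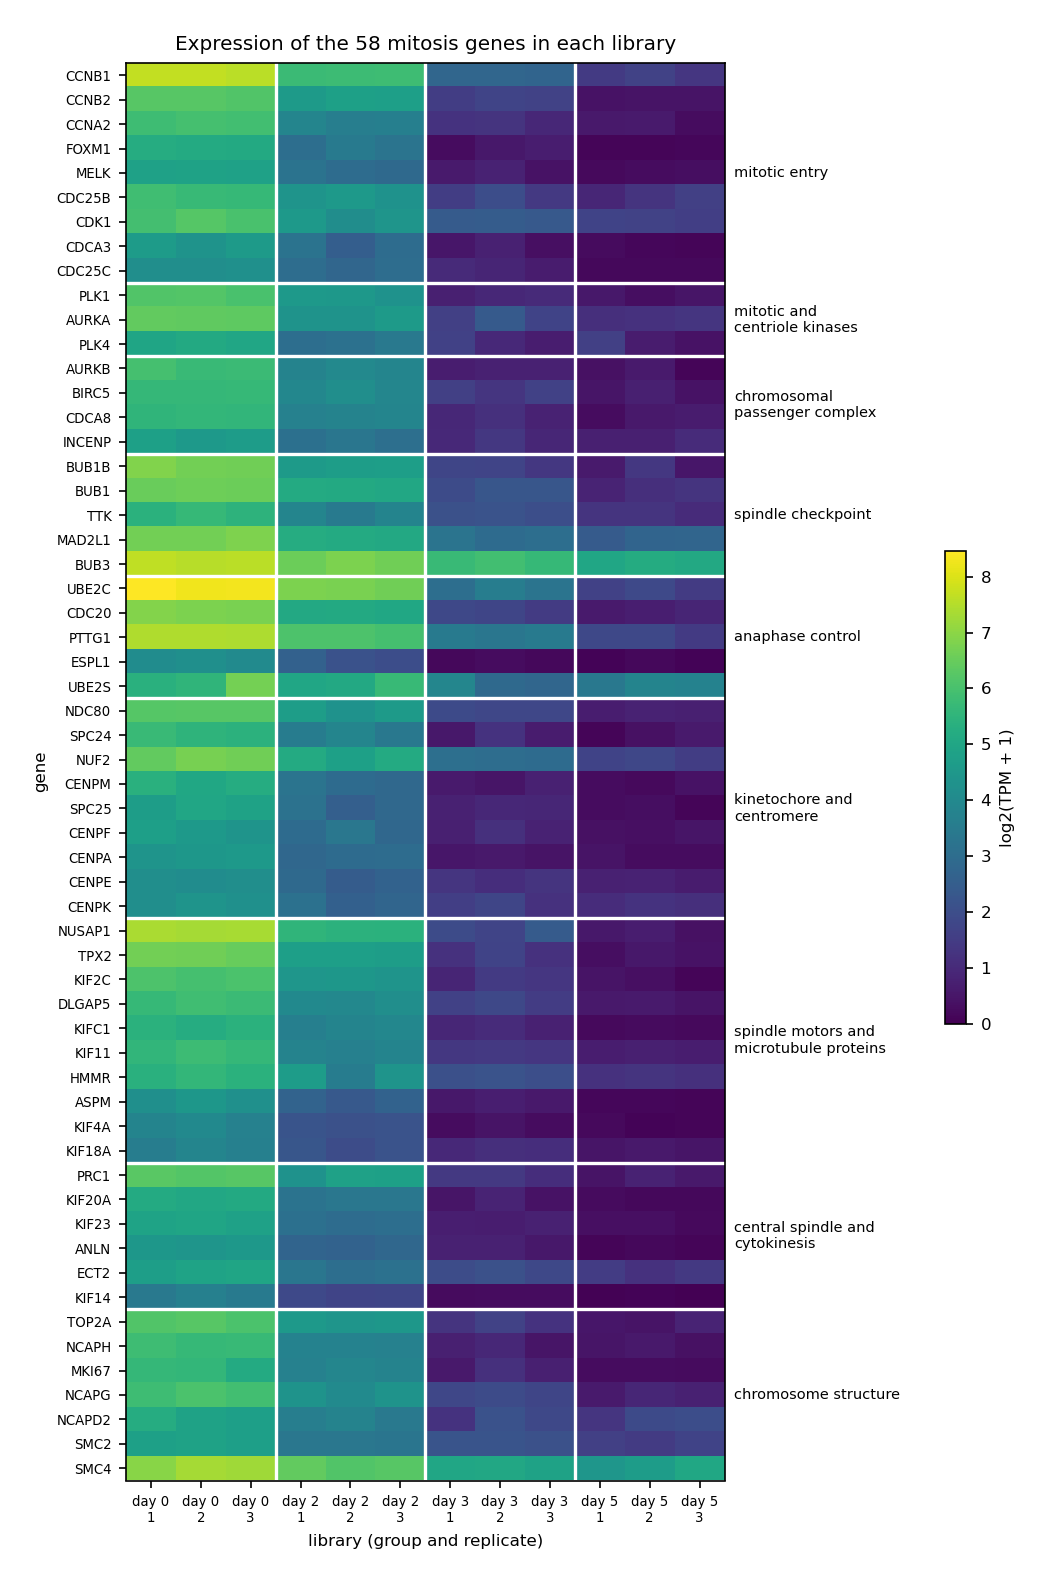
Deposited log2(TPM + 1) of the 58 mitosis genes (rows, grouped by role and ordered by their day 5 change) in the 12 libraries (columns, 3 per group; day 0 is untreated). Every block darkens from left to right; BUB3 and SMC4 stay the brightest rows on day 5, with means of 33.2 and 25.6 TPM.

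Untreated levels ran from 10.6 TPM for KIF14 to 326 TPM for UBE2C, with a median of 47.4 TPM over the 58 genes. On day 5 the median was 0.456 TPM, and 40 of the 58 genes had a mean under 1 TPM. None was listed at 0 in any library. The libraries of a group lay close together: the median SD of a gene over 3 libraries was 0.09 on the log2 scale in untreated cells, 0.13 on day 2, 0.17 on day 3 and 0.11 on day 5. Within day 3, replicate 2 was the highest library for 39 of the 58 genes.

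The fall was even across the genes on day 2. The share of the untreated TPM left was between 20% and 40% for 53 of the 58 genes. CENPM kept the least, 19.6%, and the genes above 40% were UBE2S (61.8%), SMC4 (53.1%), BUB3 (51.9%) and HMMR (42.6%). On the log2 scale the median step was largest between day 2 and day 3, although the summed TPM dropped most by day 2. BUB3, TTK, CENPE, CENPK, KIF18A, KIF14, ECT2 and SMC2 had their larger step by day 2 on this log2(TPM + 1) scale. For KIF14, CENPE, CENPK and TTK this order rests on the added 1. By ratios of mean TPM, their larger fall was from day 2 to day 3. KIF14, for example, kept 23.4% of its untreated TPM on day 2 and 1.86% on day 3. BUB3, KIF18A, ECT2 and SMC2 had their larger fall by day 2 in these ratios too. All 58 genes were called lower on day 3 than on day 2, against 55.5% of all features, with a median log2 fold change of -2.40 against -0.57. After rescaling, BUB3 was the only one of the 58 not called for this step (-0.25), and 57 were, against 13.6% of all features. By day 3, 43 of the 58 genes were under 5% of their untreated TPM.

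From day 3 to day 5 the fall continued in a part of the genes. Of the 58, 33 were called lower on day 5 than on day 3, against 13.1% of all features, and 27 after rescaling, against 2.03%. The largest further falls were in PTTG1, which encodes securin, at -1.70 on the log2 scale (adjusted p = 2.74e-06, limma), UBE2C at -1.63, NUSAP1 at -1.50, NUF2 at -1.35 and CCNB1 at -1.30. The 25 genes not called for this step were CDC25B, FOXM1, MELK, CDCA3, PLK1, PLK4, AURKB, CDCA8, INCENP, MAD2L1, ESPL1, UBE2S, SPC24, CENPM, CENPA, CENPE, CENPK, ASPM, KIF4A, KIF20A, KIF23, KIF14, NCAPH, NCAPD2 and SMC4. Of these 25, 16 had a mean under 1 TPM on day 3 already, where the added 1 leaves little room for a change on this scale, against 6 of the 33 called. With 0.1 in place of 1 as the added value, 48 of the 58 were called.

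**Figure D2:**
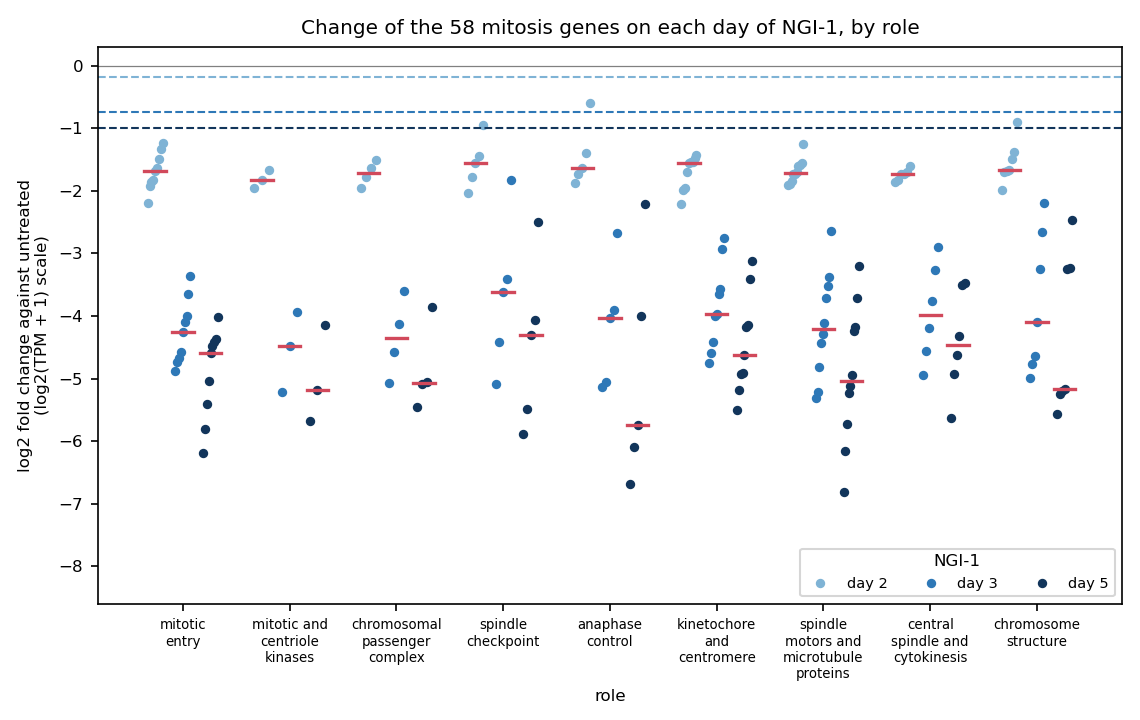
Log2 fold change against untreated on the log2(TPM + 1) scale for each of the 58 genes (points) on day 2, day 3 and day 5 of NGI-1, by role; red bars are role medians and dashed lines the medians of all 11939 tested features on the same day (-0.18, -0.73 and -0.99). All points lie below the dashed line of their day, and the points nearest to it are UBE2S on day 2, BUB3 on day 3 and UBE2S on day 5.

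Mitotic entry was represented by 9 genes, all called lower on each day, with role medians of -1.69, -4.25 and -4.59 on the log2 scale. CCNB1 (chr5:69167010-69178245), which encodes cyclin B1, was at 206, 206 and 189.5 TPM in the untreated libraries, 53.7, 54.4 and 55.4 on day 2, 5.86, 5.98 and 5.62 on day 3 and 1.68, 2.17 and 1.50 on day 5. The 4 groups did not overlap and each day lay below the one before. Its log2 fold changes against untreated were -1.86, -4.88 and -6.18 on the 3 days (SE 0.10, largest adjusted p = 2.18e-08, limma), the largest day 5 log2 change of the role. CDK1 (chr10:60778331-60794852), the kinase that cyclin B activates, went from 60.5, 73.9 and 64.1 TPM to 22.4, 16.9 and 20.3 on day 2, 4.44, 4.56 and 4.08 on day 3 and 2.24, 2.19 and 1.94 on day 5. Its groups did not overlap either, and its changes of -1.69, -3.64 and -4.42 (SE 0.12, largest adjusted p = 2.24e-07) left it at 3.21% of its untreated TPM, the largest share in the role, against 0.891% for CCNB1. By this share CCNB1 was not the lowest, since FOXM1, CCNB2, CDCA3, CCNA2, MELK and CDC25C kept less.

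FOXM1 (chr12:2857681-2877155), a transcription factor of the late cell cycle, was at 36.3, 35.2 and 34.0 TPM in untreated cells and at 7.26, 9.96 and 8.46 on day 2. It was at 0.225, 0.452 and 0.581 TPM on day 3 and 0.0843, 0.0919 and 0.111 on day 5, and the 0.272% left on day 5 was the smallest share of the 58 genes, next to NUSAP1 (0.278%). Its log2 fold changes were -1.93, -4.68 and -5.04 (SE 0.14, largest adjusted p = 1.71e-07, limma). CDC25C (chr5:138285265-138338355), a phosphatase that activates CDK1, had the smallest log2 change of the role on day 5. It went from 17.1, 17.0 and 18.1 TPM to 7.20, 5.99 and 7.20, then 1.01, 0.817 and 0.554 and then 0.13, 0.146 and 0.13 on day 5, with changes of -1.24, -3.37 and -4.02 (SE 0.13, largest adjusted p = 4.72e-06). The other 5 genes of the role, CCNA2 (cyclin A2), CCNB2 (cyclin B2), CDC25B, the kinase MELK and CDCA3, changed by -5.80 (CCNB2) to -4.37 (CDCA3) on day 5. They kept 20.6% to 38.6% of their untreated TPM on day 2 and 0.464% to 2.73% on day 5.

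Among the mitotic and centriole kinases, PLK1 (chr16:23677656-23690367), the Polo-like kinase of mitotic entry and spindle assembly, was at 69.8, 72.2 and 64.5 TPM untreated, 22.1, 21.9 and 19.0 on day 2, 0.67, 0.935 and 1.03 on day 3 and 0.445, 0.248 and 0.401 on day 5. Its changes were -1.67, -5.22 and -5.68 (SE 0.12, largest adjusted p = 2.24e-07, limma). Day 5 lay below day 3 by a log2 change of -0.46, short of the size needed for a call. AURKA (chr20:56369389-56392337), the Aurora kinase of the spindle poles, went from 84.5, 82.5 and 81.6 TPM to 19.3, 19.4 and 23.2 on day 2, 2.04, 4.25 and 2.28 on day 3 and 1.18, 1.31 and 1.46 on day 5, with replicate 2 of day 3 above the other libraries of that day. Its changes were -1.96, -4.48 and -5.18 (SE 0.17, largest adjusted p = 1.08e-06). PLK4 (chr4:127880861-127899195), the kinase of centriole duplication, was at 30.3, 34.1 and 31.4 TPM untreated, 7.22, 7.94 and 9.70 on day 2, 2.13, 0.961 and 0.606 on day 3 and 2.05, 0.55 and 0.345 on day 5. Replicate 1 of each later day stood above the others of its day, so day 3 and day 5 overlapped, and both lay below day 2. Its changes of -1.83, -3.94 and -4.15 had an SE of 0.28 (largest adjusted p = 0.000156).

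The chromosomal passenger complex corrects faulty attachments and later guides cytokinesis, and its 4 genes were called lower on each day. AURKB (chr17:8204733-8210600), its kinase, was at 61.6, 52.3 and 53.2 TPM untreated, 12.8, 14.8 and 13.5 on day 2, 0.608, 0.71 and 0.712 on day 3 and 0.298, 0.52 and 0.078 on day 5. Its changes were -1.95, -5.08 and -5.46 (SE 0.14, largest adjusted p = 1.71e-07, limma). INCENP (chr11:62123973-62153163), the scaffold of the complex, fell less, from 26.7, 23.0 and 24.4 TPM to 7.72, 8.98 and 7.53 on day 2, 0.953, 1.61 and 0.885 on day 3 and 0.655, 0.659 and 1.05 on day 5. Day 3 and day 5 of INCENP overlapped, and its changes were -1.50, -3.59 and -3.85 (SE 0.15, largest adjusted p = 3.79e-06). BIRC5 (survivin) and CDCA8 (borealin) lay between, at -5.09 and -5.06 on day 5.

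The 5 genes of the spindle checkpoint spread widely. BUB1B (chr15:40161023-40221136), which encodes the checkpoint protein BUBR1, was at 114, 100.5 and 98.5 TPM untreated, 23.6, 25.1 and 25.7 on day 2, 2.43, 2.30 and 1.59 on day 3 and 0.53, 1.58 and 0.436 on day 5. Its changes were -2.03, -5.09 and -5.88 (SE 0.19, largest adjusted p = 2.08e-06, limma). BUB3 (chr10:123154277-123170467), a WD40 protein that partners BUB1 and BUBR1, was at 198, 188 and 189 TPM untreated, 92.3, 109 and 97.3 on day 2, 51.6, 59.0 and 50.2 on day 3 and 30.9, 35.5 and 33.0 on day 5. Each group of BUB3 lay below the one before without overlap, yet 17.3% of its untreated TPM was left on day 5 against 0.811% for BUB1B. BUB3 changed by -0.94, -1.82 and -2.50 (SE 0.09, largest adjusted p = 2.81e-06), and by -1.29 on day 5 after rescaling. The other members were the kinases BUB1 and TTK and the APC/C inhibitor MAD2L1, which changed by -5.49, -4.30 and -4.07 on day 5. MAD2L1 kept 5.07% of its TPM.

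Anaphase control brought together the activator, the ubiquitin enzymes and the substrates around the APC/C. UBE2C (chr20:45812576-45816957), the ubiquitin-conjugating enzyme that starts chains for the APC/C, had the highest untreated level of the 58 genes. It was at 349.9, 311 and 318 TPM untreated, 109, 107 and 97.8 on day 2, 7.30, 11.1 and 8.49 on day 3 and 2.12, 2.67 and 1.79 on day 5, with no overlap between groups. Its changes were -1.63, -5.05 and -6.69 (SE 0.14, largest adjusted p = 7.44e-07, limma). CDC20 (chr1:43358955-43363203), the mitotic activator of the APC/C, went from 119, 109.9 and 107 TPM to 33.4, 34.2 and 31.6 on day 2, 2.55, 2.38 and 1.77 on day 3 and 0.511, 0.648 and 0.825 on day 5. It changed by -1.73, -5.13 and -6.09 (SE 0.12, largest adjusted p = 1.55e-07). PTTG1 and the protease gene ESPL1 (separase), which securin inhibits, changed by -5.74 and -4.00 on day 5. By the share of TPM left on day 5 the order was reversed, at 1.325% for PTTG1 and 0.518% for ESPL1.

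UBE2S (chr19:55399745-55407777), which extends the chains that UBE2C starts, kept more of its RNA than UBE2C. Its untreated libraries were at 40.3, 45.7 and 101 TPM, replicate 3 standing above the others. It was at 31.0, 33.4 and 51.1 TPM on day 2, 13.7, 6.50 and 5.97 on day 3 and 9.54, 13.0 and 12.4 on day 5. Day 2 overlapped the untreated range, while day 3 and day 5 lay below it and overlapped each other. The day 2 change was -0.59 (SE 0.33, adjusted p = 0.162, limma), the only one of the 58 genes that did not pass on a day against untreated. The day 3 and day 5 changes were -2.67 and -2.21 (largest adjusted p = 2.53e-05), and day 5 against day 3 was 0.46 (adjusted p = 0.311). After rescaling, the day 2, day 3 and day 5 changes were -0.36, -1.84 and -1.04 (adjusted p = 0.0147 on day 5, limma). On the deposited scale without untreated replicate 3, the day 2 and day 5 changes were -0.19 and -1.81. Its SE was the largest among the 58 genes and the SD of its untreated libraries was 0.71 on the log2 scale.

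**Figure D3:**
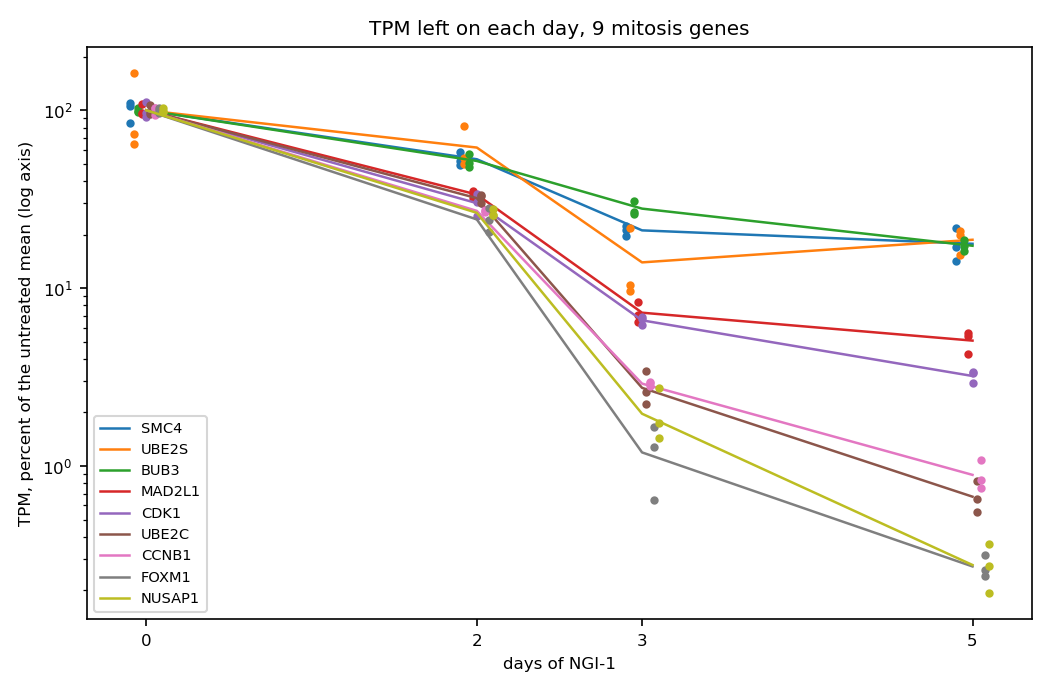
TPM in each library as a percent of the untreated mean of the same gene (log axis) against days of NGI-1, for 9 genes of different roles; points are libraries, shifted sideways by gene, and lines join group means. All lines meet on day 0 by construction. Among the later days they lie closest on day 2. On day 5 they spread from 18.7% for UBE2S, 17.8% for SMC4 and 17.3% for BUB3 to 0.278% for NUSAP1 and 0.272% for FOXM1.

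Kinetochore and centromere genes were 9, with medians of -1.55, -3.96 and -4.63 on the 3 days, and all were called on each day. NDC80 (chr18:2571511-2616635), the microtubule-binding subunit that names the NDC80 complex, was at 73.1, 76.2 and 75.2 TPM untreated, 25.3, 19.0 and 23.5 on day 2, 2.71, 2.46 and 2.45 on day 3 and 0.593, 0.739 and 0.675 on day 5. Its groups were apart on every day, and its changes were -1.69, -4.42 and -5.51 (SE 0.12, largest adjusted p = 1.45e-07, limma). The 3 other subunits of the complex followed, with day 5 changes of -5.18 for SPC24, -4.92 for NUF2 and -4.63 for SPC25. CENPK (chr5:65517766-65563171), a subunit of the inner kinetochore, had the smallest fall of the role and went from 16.9, 19.7 and 18.0 TPM to 7.87, 5.06 and 5.83 on day 2, 1.99, 2.39 and 1.30 on day 3 and 1.09, 1.34 and 1.22 on day 5. It changed by -1.42, -2.75 and -3.11 (SE 0.17, largest adjusted p = 1.64e-05). Of the remaining genes, the centromeric histone H3 variant CENPA kept 1.24% of its TPM on day 5, the centromere protein CENPM 0.655%, CENPF 1.40% and the motor CENPE 4.01%.

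Spindle motors and microtubule proteins were the largest role, with 10 genes. NUSAP1 (chr15:41332694-41381050), which binds and bundles spindle microtubules, had the largest day 5 log2 change of all 58 genes. It was at 167, 158 and 160.2 TPM untreated, 45.2, 41.9 and 41.6 on day 2, 2.81, 2.31 and 4.42 on day 3 and 0.444, 0.591 and 0.312 on day 5, with changes of -1.89, -5.31 and -6.82 (SE 0.15, largest adjusted p = 5.34e-07, limma). KIF18A (chr11:28020620-28108308), a kinesin that limits the length of kinetochore microtubules, had the smallest log2 change of the role. It went from 11.04, 13.51 and 11.86 TPM to 3.76, 2.93 and 3.46 on day 2, 0.951, 1.18 and 1.18 on day 3 and 0.408, 0.487 and 0.397 on day 5, and its changes were -1.58, -2.64 and -3.19 (SE 0.13, largest adjusted p = 4.49e-07). The other kinesins, KIF11 (Eg5, which separates the poles), KIF2C, KIFC1 and the chromokinesin KIF4A, changed by -4.95, -5.73, -5.11 and -3.72 on day 5. TPX2, which activates Aurora A, changed by -6.16, DLGAP5 by -5.24, ASPM by -4.18 and HMMR by -4.23. HMMR had uneven libraries on day 2, at 24.4, 10.7 and 19.7 TPM.

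Cytokinesis depends on the central spindle and on the contractile ring, and all 6 genes of this role were called on each day. PRC1 (chr15:90966038-90995629), which bundles the antiparallel microtubules of the central spindle, was at 78.2, 71.9 and 75.4 TPM untreated, 18.7, 27.9 and 27.0 on day 2, 1.64, 1.64 and 1.14 on day 3 and 0.37, 0.749 and 0.501 on day 5. Its changes were -1.60, -4.95 and -5.63 (SE 0.16, largest adjusted p = 3.32e-06, limma). KIF14 (chr1:200551497-200620734), a kinesin of the midbody, had the lowest untreated level of the 58 genes and the smallest log2 change of the role. It was at 9.81, 11.9 and 9.99 TPM untreated, 2.64, 2.35 and 2.44 on day 2, 0.175, 0.203 and 0.21 on day 3 and 0.0458, 0.0473 and 0.00758 on day 5, with changes of -1.73, -3.27 and -3.48 (SE 0.12, largest adjusted p = 1.13e-07). In linear terms the order turned, since KIF14 kept 0.318% and PRC1 0.719% of their TPM on day 5; the added 1 lowers the log2 change of genes with few TPM. KIF20A and KIF23, the motors of the midzone, the ring scaffold ANLN and the RhoA activator ECT2 changed by -4.93, -4.62, -4.32 and -3.50. ECT2 kept 5.62%.

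Chromosome structure held the condensin subunits, topoisomerase IIα and Ki-67. TOP2A (chr17:40388516-40417950), which untangles sister DNA, was at 70.0, 76.1 and 66.4 TPM untreated, 22.1, 20.2 and 21.4 on day 2, 1.41, 2.16 and 1.38 on day 3 and 0.421, 0.372 and 0.787 on day 5, with changes of -1.69, -4.77 and -5.56 (SE 0.14, largest adjusted p = 6.97e-07, limma). MKI67 (chr10:128096659-128126385), the gene of the proliferation marker Ki-67, was at 48.6, 47.1 and 34.8 TPM untreated, 12.1, 13.8 and 12.7 on day 2, 0.484, 1.27 and 0.665 on day 3 and 0.22, 0.205 and 0.183 on day 5. Its changes were -1.67, -4.63 and -5.20 (SE 0.17, largest adjusted p = 3.71e-06). The 5 condensin genes did not fall by like amounts. NCAPG and NCAPH, subunits particular to condensin I, changed by -5.16 and -5.24 on day 5, and NCAPD2, the third, by -3.25.

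SMC2 and SMC4 are the ATPase subunits that condensin I and condensin II share. SMC4 (chr3:160399274-160434962) was at 122, 158 and 153 TPM untreated, 84.0, 70.9 and 74.8 on day 2, 30.8, 32.3 and 28.4 on day 3 and 20.6, 24.7 and 31.6 on day 5. Day 3 and day 5 overlapped, and both lay below day 2. Its changes were -0.90, -2.20 and -2.46 (SE 0.14, largest adjusted p = 0.000201, limma), and -1.26 on day 5 after rescaling. SMC2 changed by -3.24 on day 5, close to NCAPD2. On the share of RNA left on day 5, UBE2S, SMC4 and BUB3 stood together at 18.7%, 17.8% and 17.3%, then came NCAPD2 at 7.73%, SMC2 at 7.34%, CENPK at 6.68%, ECT2 at 5.62% and MAD2L1 at 5.07%, and the other 50 genes were under 5%, 34 of them under 1%.

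Some values carry a limit from overlapping annotation, since the sources used here do not say whether reads were assigned by strand. In GENCODE release 29 on GRCh38, 11 of the 58 genes (CCNA2, CDC25C, FOXM1, NUF2, SPC24, KIF4A, KIF18A, KIF20A, NCAPD2, NCAPG and SMC4) have exons that overlap exons of an opposite-strand gene with a mean above 1 TPM in untreated cells. On day 5 the neighbour MRPL51 was at a mean of 96.8 TPM beside NCAPD2 and IFT80 at 8.55 TPM beside SMC4. On the same strand, CENPA overlaps SLC35F6, at 4.20 TPM on day 5, and NUSAP1 overlaps AC087721.2, at 0.265 TPM. Pseudogenes and close copies of the 58 genes, 21 in the table, were at or under 0.533 TPM in every library.

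Set against the promoter letters, the day 5 log2 change gave overlapping groups. The 29 genes with both TTTGAA and CCAAT in their windows had a median day 5 log2 change of -4.37, from -6.82 to -3.19. Those with CCAAT alone numbered 11, with a median of -5.24, and included CCNB1 at -6.18 and UBE2S at -2.21, whose printed stretches lack TTTGAA. The 7 genes with TTTGAA alone had a median of -4.92, and the 3 with neither, CENPE, KIF2C and MELK, one of -4.59. These medians do not rank the groups by the share of RNA left, because a low untreated level limits the log2 change. KIF14, with both motifs, had 10.6 TPM untreated, kept 0.318% of it on day 5 and changed by -3.48. CCNB1 had 200 TPM untreated and kept more, 0.891%, at a larger log2 change. The difference between the groups was not tested.

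Another 98 genes of mitosis, in 5 lists, give the surroundings of the 58 genes. On day 5, 92 of the 98 were called lower, 2 were called higher, and the median log2 fold change was -2.28 against -4.92 for the 58 genes and -0.99 for all features. After rescaling, 76 were called lower and 7 higher, against 26.9% and 27.5% of all features on this scale, and the median was -1.26. The core subunits of the APC/C moved least as a list: 12 of 15 were called lower, a share near the 69.8% of all features, 2 were called higher, and the median was -1.55. After rescaling the list had a median of -0.40, with 7 genes called lower and 4 called higher, and ANAPC11 turned from -0.52 (called lower) to 0.69 (called higher). Within it CDC23 changed by -2.35, while ANAPC10, at 17.5, 18.5 and 19.4 TPM untreated and 38.6, 36.9 and 37.0 on day 5, rose by 0.98 (SE 0.13, adjusted p = 5.15e-06). ANAPC13 rose by 0.71 on day 5 and by 0.53 on day 3, where it was the only one of the 98 called higher. Beside them, CDC20 and UBE2C of the 58 genes kept 0.591% and 0.672% of their TPM.

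Of 17 entry regulators, 16 were called lower on day 5, against 69.8% of all features. MYBL2, which encodes B-MYB and acts with FOXM1 at CHR promoters, went from 277, 261 and 262 TPM to 2.40, 2.84 and 2.53 on day 5, a change of -6.22 (SE 0.11, adjusted p = 6.28e-14, limma). ENSA, an inhibitor of a phosphatase that opposes CDK1, was the least changed at -0.26 and was not called. All 14 genes of cohesin and condensin II were called lower, from CDCA5 (sororin) at -5.82 to the cohesin subunit STAG2 at -0.81. In the list of other kinetochore and checkpoint genes, 28 of 30 were called lower, with SKA1 at -5.81, and CENPQ at -0.05 was the least changed. All 22 genes of spindle, centrosome and cytokinesis were called lower, from CEP55 at -5.26 to KIF2A at -1.62. After rescaling, 11 of 17, 13 of 14, 24 of 30 and 21 of 22 genes of these lists were called lower, against 26.9% of all features. On that scale STAG2 had a change of 0.41 and was not called, while CENPQ (1.09), ENSA (0.96) and the kinetochore gene NSL1 (0.76) were called higher.

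**Figure D4:**
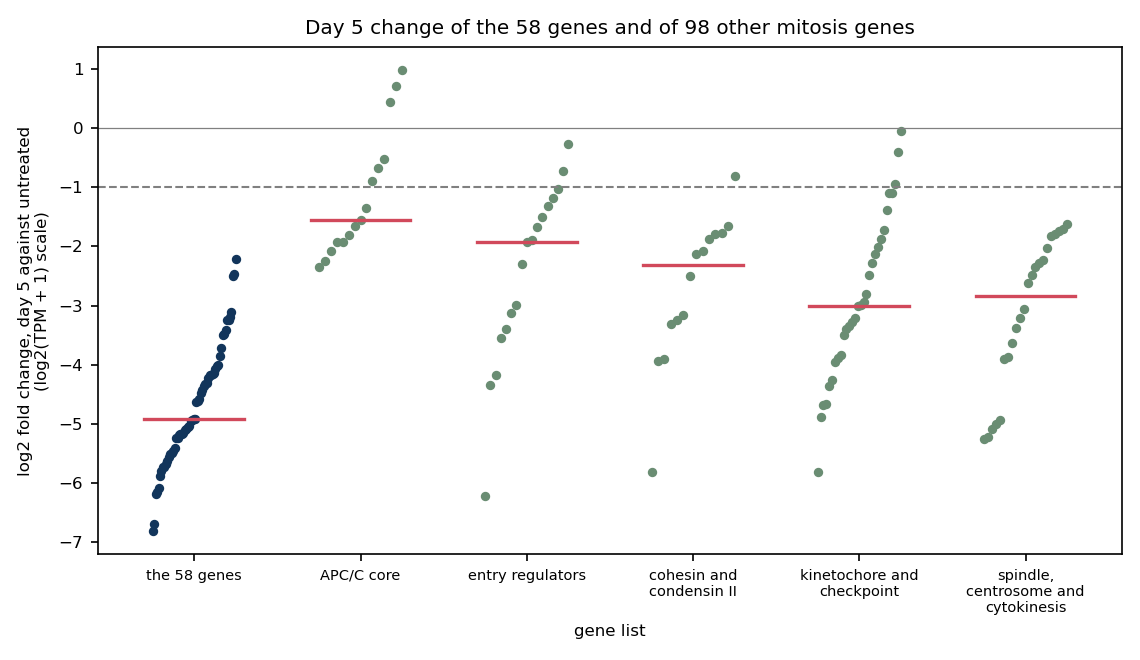
Log2 fold change of day 5 against untreated (log2(TPM + 1) scale) for the 58 mitosis genes (dark blue) and 98 other mitosis genes in 5 lists (green); points are genes, red bars are medians and the dashed line is the median of all tested features (-0.99). The 58 genes have a median of -4.92 and the lists medians from -1.55 (APC/C core) to -3.00 (kinetochore and checkpoint).

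DNA replication genes, which are transcribed earlier in the cell cycle, give a second reference for the timing. All 26 were called lower on every day, against 23.2%, 61.5% and 69.8% of all features on days 2, 3 and 5. On day 2 their median log2 fold change was -1.85 against -1.69 for the 58 mitosis genes, and on day 5 it was -3.78 against -4.92. From day 3 to day 5, 7 of the 26 replication genes and 33 of the 58 mitosis genes were called lower, against 13.1% of all features. After rescaling these counts were 1 and 27, against 2.03%. These medians share the untreated libraries, and the difference between the lists was not tested.

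Markers of plasma cells were checked in every library. The summed level of 8 plasma cell markers, SDC1, TNFRSF17, XBP1, IRF4, PRDM1, MZB1, CD38 and SLAMF7, ran from 3265 to 3449 TPM in untreated libraries and from 3002 to 3337 TPM on day 5. The markers moved in different directions under this sum. TNFRSF17, which encodes the receptor BCMA, rose from a mean of 577 to 2087 TPM, while XBP1, SDC1, CD38, MZB1 and IRF4 were called lower and kept 23.66%, 28.99%, 38.38%, 47.65% and 48.38% of their untreated TPM. PRDM1 and SLAMF7 were at 122.4% and 130.1% of their untreated TPM on day 5 and were not called. After rescaling only XBP1 and SDC1 of the 8 were called lower, while TNFRSF17 (3.08), SLAMF7 (1.59) and PRDM1 (1.50) were called higher. CD38, MZB1 and IRF4 were then not called, and MZB1 and IRF4 had small positive changes. CD38 had the lowest level of the 8 on day 5, at a mean of 17.6 TPM. Sets of 4 markers each for B cells, myeloid cells and stromal cells summed to at most 0.745 TPM in any library. Those for T cells summed to between 2.75 and 7.22 TPM, most of it from CD3E.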

How the data were processed

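MM1S cells were profiled by total RNA-seq in 12 libraries, 3 per group, grouped by the time point in the labels. The authors deposited log2(TPM + 1) values per gene symbol. Per the labels, FastQC, Trimmomatic, STAR, Salmon and the build hg38 were used, and versions are not given in the sources used here. With the log2 undone, the libraries added up to between 999997 and 1000002 TPM. TPM keeps no counts, so precision was read from the spread between libraries.

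The filter kept the 11939 features that reached 1 TPM in 3 or more libraries. The test was limma 3.58.1 in R 4.3.3, in 1 fit of all 4 groups with a mean-variance trend, for 5 contrasts. P-values are two-sided and Benjamini-Hochberg adjusted within each contrast. The call required both a log2 fold change beyond 0.5 in either direction and an adjusted p below 0.05. The fit was tested on simulated data. Percentages of untreated TPM are ratios of group means. Promoter windows came from RefSeq (GRCh38.p14) and gene positions from GENCODE release 29. Figures were drawn with matplotlib 3.10.9.

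The 58 genes and the comparison lists were chosen with earlier results of these data known, and no test over a list was made. Values per library are given for the genes with the largest and smallest day 5 change of each role and for CCNB1, CDK1, CDC20, AURKA, AURKB, PLK1, TOP2A, MKI67 and FOXM1. Other genes whose values are given for a step, a range or an overlap were chosen after their values were seen. Of the other lists, the genes with the lowest and highest day 5 change and those called higher are named. Alternatives were rescaling, a pseudocount of 0.1, a minimum of 5 TPM, testing without a filter, leaving out the 20 most abundant features, fits of only the groups compared, no trend, a fold change threshold of 1 and leaving out each library in turn.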

Additional observations from a re-analysis of the deposited data

Results flagged for a closer look

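The change from untreated differed between neighbouring days, by the limma test of that difference itself. Of the 58 genes, 58 were called lower on day 3 than on day 2, against 55.5% of all features. From day 3 to day 5, 33 were called lower, against 13.1%. Groups of 3 libraries are too small for the check of single outlying libraries.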

How the results depend on the processing

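Against untreated, no call of the 58 genes was lost under rescaling, either filter, the smaller pseudocount, the fits of only the groups compared, no trend, the fit without the 20 most abundant features or the omission of any library. With a fold change threshold of 1, BUB3 (-0.94) and SMC4 (-0.90) were no longer called on day 2, and the count from day 3 to day 5 was 10 in place of 33. Rescaling moved the median log2 fold change to -1.45, -3.35 and -4.02 on days 2, 3 and 5, to -1.97 from day 2 to day 3 and to -0.49 from day 3 to day 5, and BUB3 was no longer called from day 2 to day 3. A pseudocount of 0.1 moved it to -4.94 on day 3, -6.50 on day 5, -3.16 from day 2 to day 3 and -1.22 from day 3 to day 5. Without the 20 most abundant features it was -1.61 on day 2, -2.49 from day 2 to day 3 and -0.65 from day 3 to day 5. Leaving out 1 library at a time gave medians from -4.92 to -4.87 on day 5 and from -0.61 to -0.53 from day 3 to day 5, and counts of 32 to 37 for that last step. The cause of these shifts was not tested. Changes from day 3 to day 5 that turned direction were small and not called: NCAPD2 (-0.01) was 0.26 after rescaling, 0.048 without the 20 features and from -0.25 to 0.21 without single libraries, SMC4 was 0.085 after rescaling, and PLK4 ranged from -0.57 to 0.062 without single libraries. No paired analysis was possible because the labels give no replicate numbers, and those used here only name the libraries of a group in order of deposit. Many of the 58 genes were under 1 TPM on day 5, and with no counts deposited their counting error there is unknown.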
